A study of Mus musculus with 14 samples.

Results

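The RNA levels of 10 genes that act in germ cell RNA metabolism and the piRNA pathway were compared between Coup-tfII knockout and control fetal mouse ovaries, and between 2 stages of gestation. The genes were Ddx4, Dazl, Mael, Tdrd1, Tdrd9, Piwil2, Tex101, Mov10l1, Ddx25 and Rnf17, taken by name with earlier results of these data known, and no threshold was applied. Every probe set whose only annotated symbol was 1 of these names was taken, which gave 14 probe sets for 10 of the 18193 genes on the array. Dazl had 2 probe sets, Rnf17 had 4, and the other 8 genes had 1 each. All 10 genes passed the filter on low signal and were among the 12406 genes tested.

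Whole ovaries were profiled on 14 Affymetrix arrays, from 3 E14.5 knockout, 3 E14.5 control, 4 E16.5 knockout and 4 E16.5 control samples, the stages being counted in days of embryonic life. The dams of all 4 groups received tamoxifen at E11.5 and again at E12.5, 2 mg for each 10 g of their weight, and all embryos came from a mixed C57BL/6, Swiss Webster and B6129SF1/J background. Knockouts carried floxed Coup-tfII alleles (symbol Nr2f2, a nuclear receptor gene) and WT1-CreERT2, a recombinase driven from Wt1, a gene of somatic gonadal cells, and active only after tamoxifen. The labels do not say which alleles the controls carried, whether the recombinase was among them, or whether a sample was 1 embryo or a pool. They call the samples biological replicates.

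In fetal ovaries, germ cells multiply, enter meiosis and arrest as oocytes, and the genes of this set are known mainly from germ cells. Whether somatic cells of these ovaries also transcribe some of them was not tested. PIWI proteins bind short piRNAs and silence transposons; helicases and Tudor-domain proteins make, load and amplify those piRNAs in granules close to the nucleus. Ddx4 and Dazl are the usual markers of germ cells in sections of the fetal gonad, so their summed RNA is often read as a measure of germ cell content. In whole-ovary RNA, fewer germ cells and less RNA per germ cell cannot be told apart.

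The promoters of the set are shown because members that moved in opposite directions between the stages shared the same short word in them. RefSeq promoter windows (GRCm38.p6, 250 bases before to 50 after an annotated start) were given for 8 of the 10 genes, in 10 windows. One word searched was CACGTG, which reads the same on both strands and is the core of the E-boxes bound by MAX dimers. The other was TCCCGC, a core of E2F6 sites, searched on both strands. MAX and E2F6 are parts of a Polycomb complex known to silence germline genes in other cells. The words do not overlap each other. CACGTG was found for 6 of the 8 genes (Ddx4, Mael, Tdrd1, Tdrd9, Mov10l1 and Ddx25). By window this was 7 of 10, against 7.15% of all 32851 windows and 10.9% of the 14281 windows with at least 10 CpG. TCCCGC was found for 3 of the 8 genes (Ddx4, Mael and Ddx25). By window this was 3 of 10, against 19.98% of all windows and 40.3% of those with at least 10 CpG. The windows of Dazl and Tex101 held neither word. Capitals mark both words, on either strand, in the sequences that follow, which are the whole windows of Ddx4, Tdrd1 (the first of its 3 windows) and Tdrd9, and the surroundings of CACGTG in 3 others.
Ddx4, chr13:112652261-112652560, minus strand: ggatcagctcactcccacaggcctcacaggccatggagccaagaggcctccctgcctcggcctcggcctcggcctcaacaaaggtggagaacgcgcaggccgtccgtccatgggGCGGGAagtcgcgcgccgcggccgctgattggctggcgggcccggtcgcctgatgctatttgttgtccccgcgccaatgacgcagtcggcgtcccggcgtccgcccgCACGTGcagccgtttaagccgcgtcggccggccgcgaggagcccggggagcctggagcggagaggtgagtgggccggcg
Tdrd1, chr19:56825959-56826258, plus strand: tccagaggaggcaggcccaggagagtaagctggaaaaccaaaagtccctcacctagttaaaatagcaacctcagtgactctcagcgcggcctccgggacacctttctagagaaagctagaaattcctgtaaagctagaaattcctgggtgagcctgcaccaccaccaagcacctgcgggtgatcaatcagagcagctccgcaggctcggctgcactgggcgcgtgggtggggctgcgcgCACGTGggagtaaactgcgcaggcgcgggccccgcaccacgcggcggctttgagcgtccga
Tdrd9, chr12:111971309-111971608, plus strand: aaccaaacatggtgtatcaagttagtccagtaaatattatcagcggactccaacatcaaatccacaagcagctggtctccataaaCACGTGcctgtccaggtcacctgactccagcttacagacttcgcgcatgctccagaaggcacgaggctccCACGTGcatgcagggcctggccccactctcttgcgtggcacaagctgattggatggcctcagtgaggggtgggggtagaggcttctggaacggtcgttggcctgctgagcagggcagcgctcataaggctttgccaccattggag
Mael, chr1:166238955-166238974, minus strand: ggcctacCACGTGacaatcc
Mov10l1, chr15:88982744-88982760, plus strand: ccttCACGTGctaaccg
Ddx25, chr9:35558421-35558440, minus strand: gtggcagCACGTGccagggg
CACGTG began 29 bases before the start of Ddx4, 11 before the first start of Tdrd1, and 165 and 95 before that of Tdrd9. The second Tdrd1 window holds the same site, 77 bases before its start, and the third holds neither word. It began 223 bases before the start of Mael, 246 before that of Mov10l1, and 38 after that of Ddx25. These matches are descriptions of the letters, not evidence of binding.

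Each array had been scaled by the authors so that its trimmed mean was 500, and signals below are MAS5 signals in those units. Median signals were 118 to 136 at E16.5 and 90.0 to 102 at E14.5. The ovary markers Foxl2 and Wnt4 had lowest signals of 1153 and 858 over all arrays, and the testis marker Amh stayed below 13. The Y-linked Eif2s3y and Kdm5d reached at most 21.5 and 36.1. Nr2f2 itself, on its brightest probe set, averaged 2534 ± 575 in E16.5 knockouts and 4332 ± 467 in E16.5 controls (SD, n = 4 each), with no overlap; on the log2 scale it changed by -0.79 ± 0.22 (SE; limma adjusted p = 0.0753). At E14.5 the means were 225 ± 60.9 in knockouts and 377 ± 143 in controls (SD, n = 3 each), and the log2 change was -0.67 ± 0.25 (limma adjusted p = 0.444). Of the 6 Nr2f2 probe sets, 3 passed as lower at E16.5 and 0 at E14.5 (1 without overlap there). E14.5 control replicate 1 went against its label on the brightest probe set: it read 217, against 493 and 422 in the other E14.5 controls and 155 to 267 in E14.5 knockouts, and it was the lowest control on 6 of 6 probe sets. The main E14.5 values below are also given without it. The Gapdh 3' minus 5' difference, a measure of RNA integrity and labelling, was 0.94 to 1.63 on the log2 scale in E16.5 knockouts and 1.67 to 1.83 in E16.5 controls, which did not overlap, and -0.37 to -0.29 in E14.5 knockouts and -0.42 to -0.06 in E14.5 controls. The bioB hybridization control was 4105 to 17637 at E16.5 and 1519 to 1882 at E14.5, with the highest values in E16.5 knockout replicates 4 (17637) and 1 (10947).

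At E14.5 none of the 10 genes differed between knockout and control ovaries past the threshold, an adjusted p of 0.05 over all genes tested. Of all genes tested, 0.0403% passed. The log2 change lay below 0 for 9 genes and above it for Mov10l1, with a median of -0.23 against 0.03 for all genes, of which 44.7% lay below 0. Among the 9 is Tdrd1, whose E14.5 signals are too low to be ordered; without it, a choice made after the data were seen, 8 of 9 genes lay below 0 and the median was -0.28. The members share arrays, so genes on 1 side of 0 are not separate observations. Leaving out 1 array at a time gave medians from -0.30 to -0.059, the smallest in size without knockout replicate 2 (-0.059) and control replicate 3 (-0.071). At an unadjusted p under 0.05, 2 of the 10 genes differed, Dazl and Rnf17, against 8.55% of all genes. Without E14.5 control replicate 1, none of the 10 passed, and the median of the set was -0.23.

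Among the RNA-binding germ cell markers at E14.5, Dazl stood lower in most knockout arrays without passing. Dazl, which binds the untranslated ends of germ cell mRNAs and controls their translation, lies on chr17:50279393-50293620. Its brighter probe set read 12637, 9693 and 17801 in E14.5 knockouts, against 17739, 16405 and 18706 in E14.5 controls. Knockout replicates 1 and 2 lay below all controls, and replicate 3 lay among them. The log2 change was -0.44 ± 0.17 (SE; 95% interval -0.79 to -0.09; limma adjusted p = 0.442). Without knockout replicate 3 it was -0.67, the only alternative run in which a member passed at E14.5 (limma adjusted p = 0.0293, against a range of 0.0293 to 0.9997 over all alternatives). Without knockout replicate 2, the lowest Dazl array, it was -0.23, and without control replicate 1 it was -0.43. The other Dazl probe set had a log2 change of -0.54 ± 0.24 (limma adjusted p = 0.562 over all probe sets).

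Ddx4, the Vasa helicase of the germ granule (chr13:112598333-112652633), read 6487, 5203 and 7748 in E14.5 knockouts, against 9140, 6723 and 8094 in E14.5 controls. The groups overlapped, and the log2 change was -0.31 ± 0.15 (95% interval -0.62 to 0.00; limma adjusted p = 0.590). Without E14.5 control replicate 1, the highest Ddx4 array, it was -0.21. Ddx25, a helicase known from testis where it governs storage and translation of mRNAs (chr9:35541848-35558470), spanned 731 to 984 in E14.5 knockouts and 756 to 963 in E14.5 controls. Its log2 change was -0.04 ± 0.17 (95% interval -0.38 to 0.31). Knockout replicate 2 had the lowest Ddx4 and Dazl signals of its group.

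Of the PIWI protein and its direct partners, none differed at E14.5. Piwil2, which binds piRNAs and cuts their precursors and targets (chr14:70372477-70436898), read 799, 585 and 1079 in E14.5 knockouts, against 760, 931 and 1048 in E14.5 controls. Mov10l1, the helicase that feeds precursor transcripts into piRNA production (chr15:88982891-89055152), spanned 1384 to 1825 in E14.5 knockouts and 1300 to 1849 in E14.5 controls. Mael, needed in mice for transposon silencing and meiosis (chr1:166201385-166238744), read 7560, 5882 and 7278 in E14.5 knockouts, against 6760, 6764 and 8780 in E14.5 controls. The groups overlapped for all 3 genes, and the log2 changes ran from -0.18 ± 0.29 for Piwil2 to 0.09 ± 0.20 for Mov10l1. The 95% interval ran from -0.40 to 0.19 for Mael and from -0.79 to 0.42 for Piwil2.

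The Tudor-domain members gave 1 gene whose groups did not overlap. Rnf17, which in mice joins Tudor domains to a RING finger and limits piRNA amplification (chr14:56402650-56525032), read 2728, 1692 and 2961 in E14.5 knockouts on its brightest probe set, against 3361, 3244 and 3736 in E14.5 controls. Every knockout array lay below every control, and the log2 change was -0.52 ± 0.20 (95% interval -0.93 to -0.11; limma adjusted p = 0.440). Without knockout replicate 2 it was -0.27, and without control replicate 1 it was -0.54. On the other 3 Rnf17 probe sets the groups overlapped, with log2 changes of -0.28 ± 0.28, -0.22 ± 0.18 and -0.20 ± 0.27. Tdrd9, a helicase with a Tudor domain that works with PIWI proteins in transposon silencing (chr12:111971488-112068854), read 129, 91.2 and 138 in E14.5 knockouts, against 137, 112 and 205 in E14.5 controls. Tdrd1, a scaffold that gathers PIWI proteins in the granule (chr19:56826171-56870012), read 6.38, 2.29 and 11.6 in E14.5 knockouts, against 5.44, 9.42 and 7.76 in E14.5 controls. All 6 Tdrd1 values lay below the filter level of 62.0, so no order can be read among them.

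Tex101 encodes a GPI-anchored surface protein of germ cells (chr7:24668012-24672050) and is no piRNA factor. It read 5053, 4700 and 4369 in E14.5 knockouts, against 5786, 5439 and 5860 in E14.5 controls. Every knockout array lay below every control, with a log2 change of -0.28 ± 0.23 (95% interval -0.76 to 0.21; limma adjusted p = 0.779), and of -0.26 without control replicate 1. The 2 genes without overlap, Rnf17 and Tex101, were both lower; 4.9% of all genes were lower without overlap at E14.5. Of the 5 surface epithelium markers, all 5 were on the array and none was at 0. In the same arrays they summed to 8289 to 11644 in E14.5 knockouts and 6247 to 6569 in E14.5 controls. The 6 testis markers on the array (of 8) summed to 394 to 587 in E14.5 knockouts and 284 to 367 in E14.5 controls. The part of both lists in the E14.5 values of the set was not tested.

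**Figure D1:**
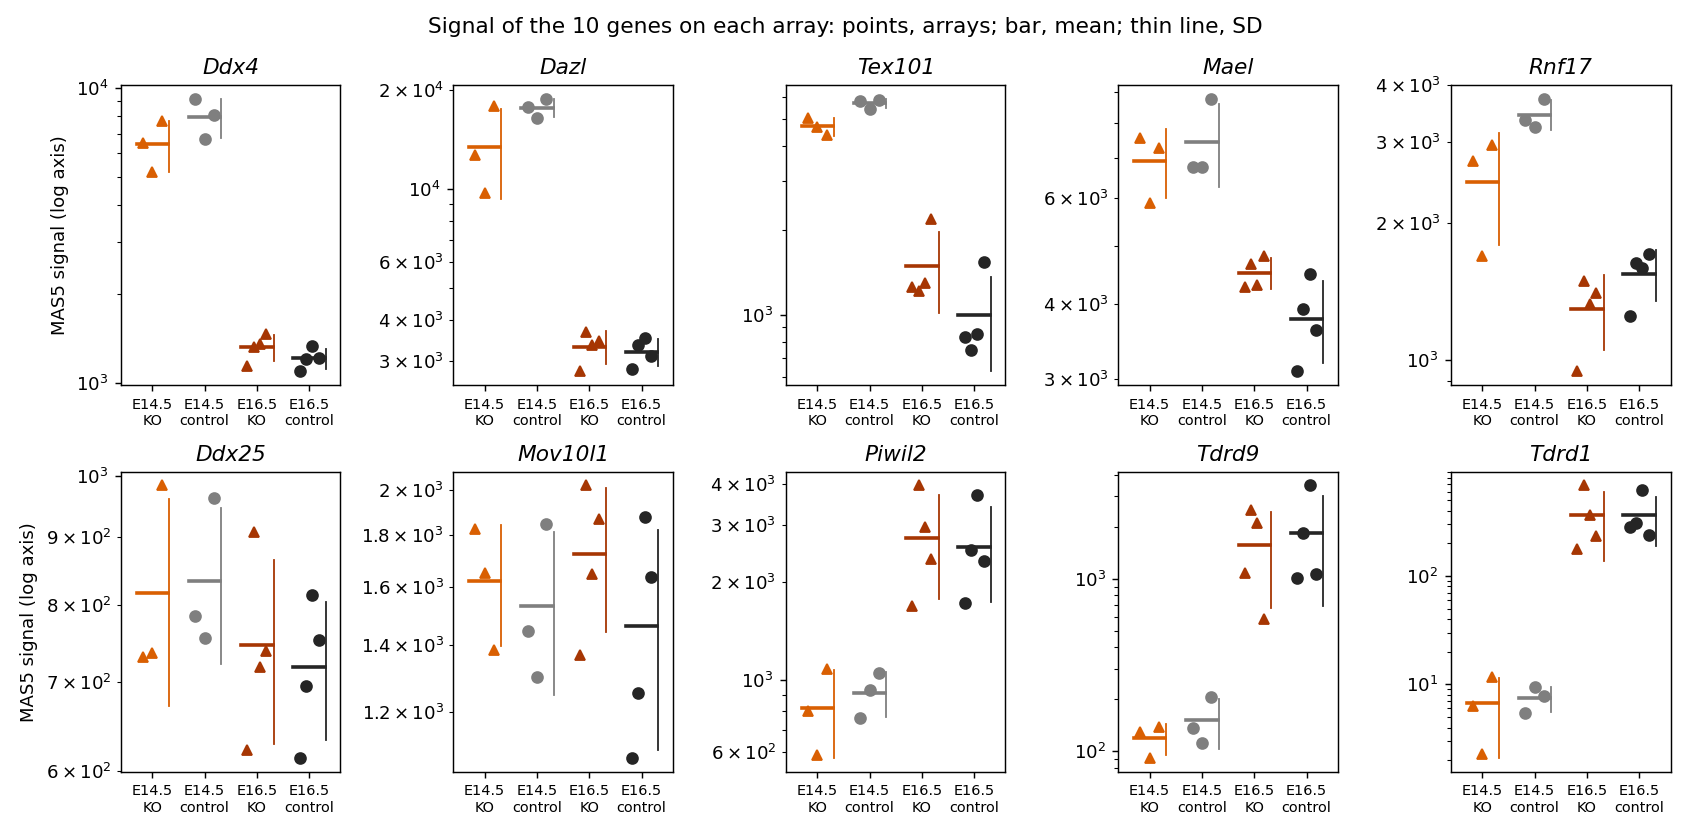
MAS5 signal (log axis) of the 10 genes in E14.5 knockout, E14.5 control, E16.5 knockout and E16.5 control ovaries, 1 panel a gene, with a point for each array, a horizontal bar for the group mean and a thin line for its SD. Knockout and control points lie side by side within each stage, while Ddx4, Dazl and Tex101 lie lower and Piwil2, Tdrd9 and Tdrd1 lie higher at E16.5 than at E14.5.

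At E16.5, with 4 arrays a group, again none of the 10 genes differed between knockout and control ovaries past the threshold, while 1.42% of all genes tested did. The log2 change lay above 0 for 7 genes and below it for 3, with a median of 0.06 against 0.05 for all genes, of which 58.9% lay above 0. Leaving out 1 array at a time gave medians from -0.026 (without knockout replicate 2) to 0.20 (without knockout replicate 1), and -0.016 without control replicate 1. At an unadjusted p under 0.05, 2 of the 10 genes differed, Tex101 and Mael, against 18.3% of all genes. No gene of the set had groups free of overlap, against 10.4% of all genes.

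Several marker lists separated the genotypes at E16.5 in their summed signals. The 5 surface epithelium markers summed to 9195 to 13170 in E16.5 knockouts and 6948 to 8093 in E16.5 controls. The 10 pre-granulosa markers, for the somatic cells that surround oocytes, summed to 27309 to 28445 in E16.5 knockouts and 31613 to 32943 in E16.5 controls. The 6 adrenal cortex and steroidogenic markers summed to 3852 to 6718 in E16.5 knockouts and 1648 to 2734 in E16.5 controls. The 6 testis markers on the array (of 8) summed to 558 to 644 in E16.5 knockouts and 438 to 547 in E16.5 controls. None of these markers was at 0. The part of these differences, and of the Gapdh 3' minus 5' difference, in the E16.5 values of the set was not tested.

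The most used germ cell markers did not pass at E16.5. Ddx4 read 1147, 1331, 1360 and 1463 in E16.5 knockouts, against 1097, 1206, 1333 and 1219 in E16.5 controls. Dazl read 2788, 3681, 3345 and 3449 in E16.5 knockouts, against 2827, 3344, 3517 and 3109 in E16.5 controls. The log2 change was 0.12 ± 0.13 for Ddx4 (95% interval -0.15 to 0.39; limma adjusted p = 0.645). For Dazl it was 0.05 ± 0.14 (95% interval -0.25 to 0.35; limma adjusted p = 0.890), and the other Dazl probe set gave -0.19 ± 0.20.

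Tex101 had the largest knockout difference of the set at E16.5. It read 1253, 1211, 1300 and 2205 in E16.5 knockouts, against 829, 749, 856 and 1539 in E16.5 controls. Replicate 4 was the highest array of both groups, and the control replicate 4 lay above 3 of the 4 knockouts. The log2 change was 0.59 ± 0.20 (95% interval 0.17 to 1.02; limma adjusted p = 0.135). Without E16.5 control replicate 4 it was 0.82 and passed (limma adjusted p = 0.0295, against a range of 0.00525 to 0.658 over all alternatives). Without E16.5 knockout replicate 4 it was 0.39 (limma adjusted p = 0.351).

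Mael read 4270, 4657, 4309 and 4813 in E16.5 knockouts, against 3093, 3921, 4495 and 3618 in E16.5 controls. Control replicate 3 lay among the knockouts and the other 3 controls lay below them, with a log2 change of 0.26 ± 0.12 (95% interval 0.01 to 0.52; limma adjusted p = 0.260). Rnf17 read 946, 1494, 1329 and 1403 in E16.5 knockouts on its brightest probe set, against 1253, 1636, 1589 and 1705 in E16.5 controls. The groups overlapped, and the log2 change was -0.27 ± 0.17 (95% interval -0.62 to 0.09; limma adjusted p = 0.422).

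Tdrd1, Tdrd9 and Piwil2 were spread widely among the arrays of each E16.5 group. Tdrd1 read 175, 684, 368 and 233 in E16.5 knockouts, against 282, 310, 618 and 236 in E16.5 controls. Tdrd9 read 1081, 2502, 2091 and 583 in E16.5 knockouts, against 1015, 1831, 3478 and 1060 in E16.5 controls. Piwil2 read 1685, 3970, 2951 and 2354 in E16.5 knockouts, against 1727, 2516, 3699 and 2322 in E16.5 controls. The highest Tdrd1 and Tdrd9 arrays were knockout replicate 2 and control replicate 3 in their groups. The log2 changes were -0.07 ± 0.35 for Tdrd1 (95% interval -0.80 to 0.67), -0.26 ± 0.40 for Tdrd9 (-1.11 to 0.59) and 0.08 ± 0.25 for Piwil2 (-0.45 to 0.60). Without knockout replicates 1 and 4 together, the arrays with the highest bioB signal, they were 0.55 for Tdrd1 and 0.49 for Tdrd9, and the median of the set was 0.30. Mov10l1 spanned 1367 to 2019 in E16.5 knockouts and 1079 to 1878 in E16.5 controls, and Ddx25 spanned 623 to 907 in E16.5 knockouts and 614 to 815 in E16.5 controls.

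**Figure D2:**
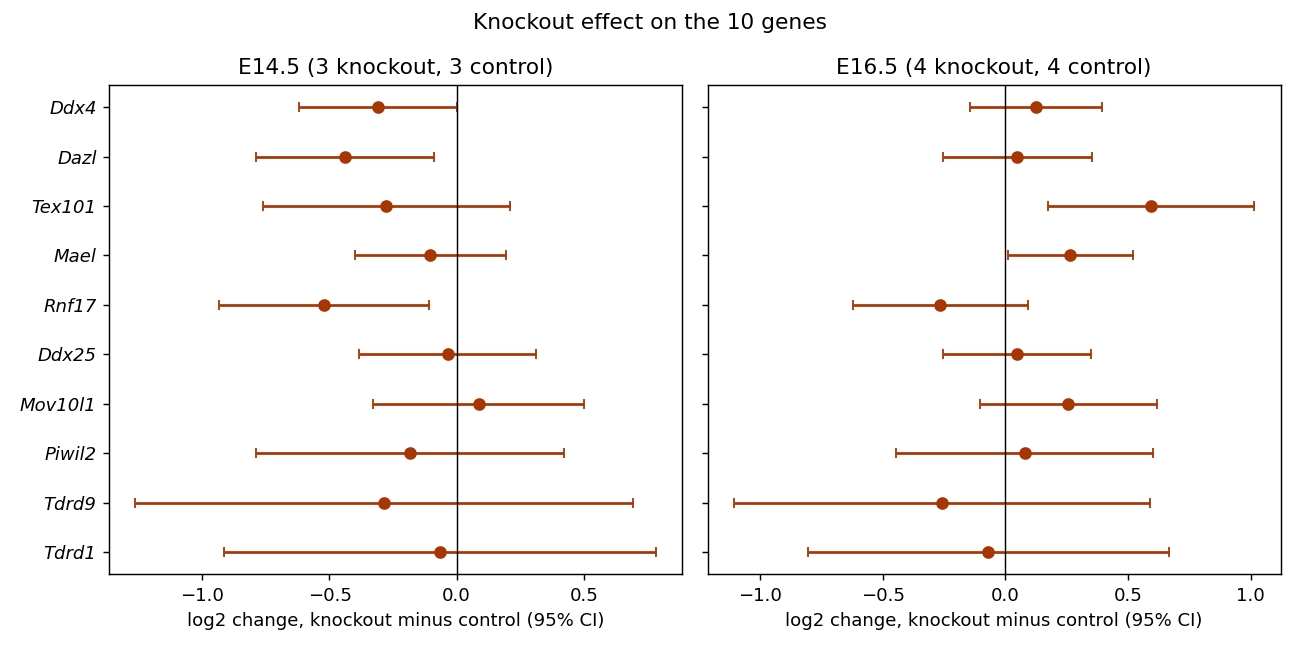
Log2 change, knockout minus control, of the 10 genes at E14.5 (left panel) and E16.5 (right panel), with points for the fitted change and bars for its 95% interval, not adjusted for the number of genes. Intervals of 8 genes hold 0 at each stage; those of Dazl and Rnf17 lie below 0 at E14.5 and those of Mael and Tex101 above 0 at E16.5, and none passed after adjustment.

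The knockout difference was then compared between the stages directly. None of the 10 genes passed, and 0.0% of all genes did (limma; 1105 of 12406 genes, or 8.91%, had an unadjusted p under 0.05). Of the 10 values, 9 lay above 0, against 52.5% of all genes, and their median was 0.26 against 0.02. Tex101 had the largest, 0.87 ± 0.31 on the log2 scale (SE; 95% interval 0.23 to 1.51; limma adjusted p = 0.525), followed by Dazl at 0.49 ± 0.22 and Ddx4 at 0.43 ± 0.20 (limma adjusted p = 0.546 for both). Without E14.5 control replicate 1 these were 0.86 for Tex101, 0.48 for Dazl and 0.33 for Ddx4, and the median of the set was 0.30. Leaving out 1 array at a time gave medians from 0.12 (without E14.5 knockout replicate 2) to 0.42 (without E16.5 control replicate 3). For Tex101 all knockouts lay below all controls at E14.5, whereas at E16.5 control replicate 4 was the only control among or above the knockouts.

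Between the stages, in contrast, 8 of the 10 genes differed in both genotypes, each in the same direction in knockouts and controls. In knockouts 3 genes were higher and 5 lower at E16.5 than at E14.5, and 60.8% of all genes passed (27.0% higher, 33.8% lower). In controls the same 3 were higher and the same 5 lower, and 64.4% of all genes passed (28.5% higher, 35.9% lower). The count of members is therefore to be read against a background in which most genes passed. The median of the set was -0.37 in knockouts, against -0.08 for all genes, and -0.59 in controls, against -0.09. Without E14.5 control replicate 1, 3 genes were again higher and 5 lower in controls, with a median of -0.64. Stage cannot be told apart from the Gapdh 3' minus 5' difference and the bioB signal, which separated the E16.5 arrays from the E14.5 arrays without overlap. With the Gapdh difference as a covariate, 2 of the 10 genes passed in each genotype, Ddx4 and Dazl. In those fits 1197 of all 12406 genes passed in knockouts and 701 in controls. Under that covariate the log2 changes of Rnf17 were -1.69 in knockouts and -2.11 in controls, those of Tex101 -1.49 and -2.31, and those of Mael -0.41 and -0.74, none of which passed. Those of Tdrd1 were 1.10 and 0.54, those of Tdrd9 1.22 and 0.76, and those of Piwil2 0.20 and -0.37.

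The 5 genes lower at E16.5 were the markers Ddx4, Dazl and Tex101, and Mael and Rnf17. Ddx4 averaged 1325 ± 132 in E16.5 knockouts against 6479 ± 1272 in E14.5 knockouts (SD, n = 4 and 3), with a difference on the log2 scale of -2.26 ± 0.14 (limma adjusted p = 5.82e-10). In controls it averaged 1214 ± 96.5 at E16.5 against 7986 ± 1212 at E14.5 (SD, n = 4 and 3), which is -2.69 ± 0.14 on the log2 scale (SE; limma adjusted p = 6.16e-11). Dazl changed by -1.97 ± 0.15 in knockouts (limma adjusted p = 1.22e-08) and by -2.46 ± 0.15 in controls (limma adjusted p = 6.59e-10). For all 5 genes every E16.5 array lay below every E14.5 array of its genotype, as held for 31.7% of all genes in knockouts and 37.4% in controls.

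Tex101 averaged 1492 ± 476 in E16.5 knockouts against 4707 ± 342 in E14.5 knockouts, and 993 ± 367 in E16.5 controls against 5695 ± 225 in E14.5 controls (SD, n = 4 and 3). Its log2 change was -1.69 ± 0.22 in knockouts (limma adjusted p = 3.31e-06) and -2.56 ± 0.22 in controls (limma adjusted p = 2.13e-08). Mael fell by 0.61 ± 0.13 on the log2 scale in knockouts (limma adjusted p = 0.000707) and by 0.97 ± 0.13 in controls (limma adjusted p = 5.09e-06).

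The 3 genes higher at E16.5 were Piwil2, Tdrd9 and Tdrd1. They act in the piRNA pathway, as do Mael and, on its brightest probe set, Rnf17, which were lower, and Mov10l1, which did not pass. Piwil2 averaged 2740 ± 970 in E16.5 knockouts against 821 ± 248 in E14.5 knockouts (SD, n = 4 and 3), with a difference on the log2 scale of 1.69 ± 0.27 (limma adjusted p = 3.54e-05). In controls it averaged 2566 ± 827 at E16.5 against 913 ± 145 at E14.5, a log2 change of 1.43 ± 0.27 (limma adjusted p = 0.000165). Tdrd9 changed by 3.35 ± 0.43 in knockouts (limma adjusted p = 3.92e-06) and by 3.33 ± 0.43 in controls (limma adjusted p = 3.53e-06). The E14.5 signals of Tdrd9 were 91.2 to 205, and its E16.5 signals 583 to 3478. For all 3 genes the stages did not overlap, as held for 24.8% of all genes in knockouts and 30.1% in controls.

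Tdrd1 passed the filter only through its E16.5 arrays, so its stage difference was favoured by the filter and does not count as support; of the other 9 genes, 7 passed in each genotype. It averaged 365 ± 228 in E16.5 knockouts against 6.76 ± 4.67 in E14.5 knockouts, and 362 ± 174 in E16.5 controls against 7.54 ± 2.00 in E14.5 controls (SD, n = 4 and 3). The log2 change was 3.91 ± 0.38 in each genotype (limma adjusted p = 1.31e-07 in knockouts and 1.02e-07 in controls), on a scale that adds 16 to each signal and so understates the change of a gene this dim. Mov10l1 and Ddx25 did not pass in either genotype. Mov10l1 had log2 changes of 0.08 ± 0.18 in knockouts and -0.08 ± 0.18 in controls, and Ddx25 of -0.13 ± 0.15 in knockouts and -0.21 ± 0.15 in controls. With arrays centred on their medians, which moved the median of all genes to -0.41 in knockouts and -0.43 in controls, Ddx25 passed as lower in both genotypes (-0.45 and -0.55) and the other 8 kept their direction and call.

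The erythroid signal also differed by stage. The 4 of 6 listed erythroid markers on the array summed to 1165 to 4940 in E16.5 knockouts and 18296 to 39896 in E14.5 knockouts, and to 906 to 2780 in E16.5 controls and 31627 to 41270 in E14.5 controls. None of the 4 was at 0, and Hbb-y, an embryonic globin, made up most of the E14.5 sums. The part of this in the stage values was not tested.

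Rnf17 showed that its probe sets did not measure 1 quantity. On the brightest, the stage change was -0.90 ± 0.18 in knockouts and -1.16 ± 0.18 in controls (limma adjusted p = 0.000398 and 2.91e-05 in the test of genes). The next brightest at E14.5 also fell, by 1.51 ± 0.17 on the log2 scale in knockouts and by 1.77 ± 0.17 in controls (limma adjusted p = 4.93e-07 and 5.64e-08 over all probe sets). Another of its probe sets went the other way. It read 689, 1267, 1040 and 1017 in E16.5 knockouts, against 194, 90.0 and 218 in E14.5 knockouts. In controls it read 894, 1065, 1100 and 1395 at E16.5, against 275, 157 and 170 at E14.5. No arrays overlapped, and the log2 changes were 2.52 ± 0.26 in knockouts and 2.40 ± 0.26 in controls (limma adjusted p = 1.58e-07 and 2.55e-07 over all probe sets). The remaining Rnf17 probe set had changes of -0.12 ± 0.25 and -0.18 ± 0.25 and did not pass. With the mean of its probe sets, Rnf17 did not pass (-0.0040 in knockouts and -0.18 in controls; limma adjusted p = 0.988 and 0.458). Which transcripts each probe set detects was not examined. The 2 probe sets of Dazl both passed as lower.

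**Figure D3:**
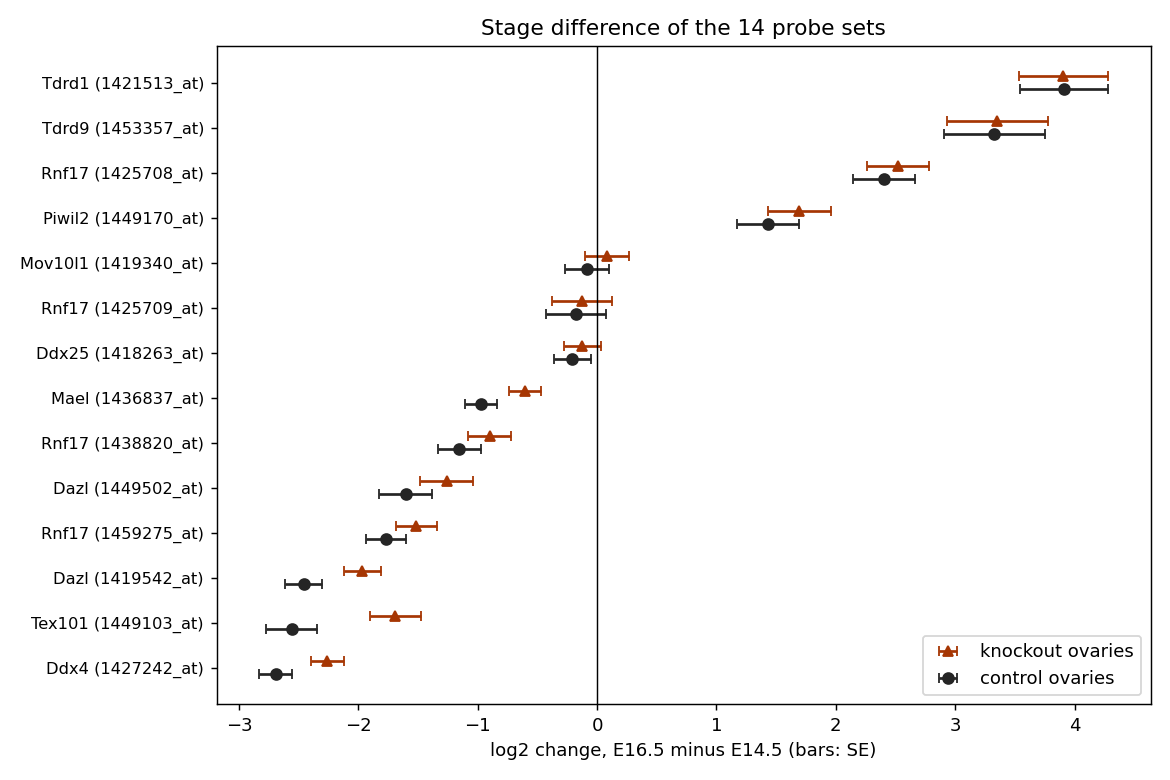
Log2 change, E16.5 minus E14.5, of all 14 probe sets in knockout ovaries (triangles) and control ovaries (circles), with bars for the SE. Probe sets of Ddx4, Dazl and Tex101 lie near -3 to -1, those of Tdrd1, Tdrd9 and Piwil2 lie between 1 and 4, and the 4 Rnf17 probe sets lie on both sides of 0.

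Within a group, the genes moved together from array to array. After the group means were subtracted, the 45 pairs of genes had a median Pearson r of 0.56 over 14 arrays, and 41 pairs lay above 0. The pairs share each array's RNA, scaling and hybridization, so these values are descriptions. Pairs of genes outside the set were not examined, so whether this is particular to the set cannot be told. Tdrd1 and Piwil2 reached 0.89, Dazl and Rnf17 0.87, Piwil2 and Ddx25 0.86, Ddx4 and Dazl 0.85, and Tdrd1 and Tdrd9 0.81. The E14.5 deviations of Tdrd1 in these values come from signals below the filter level. Tex101 stood outside this pattern. Its 9 pairs ran from -0.59 (with Tdrd9) to 0.39, while the 36 pairs without it were all at 0.23 or above.

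Certain arrays were often the lowest or the highest of their group for the genes of the set. Such counts were not made over all genes, so they describe these arrays and not a trait of the set. At E14.5, knockout replicate 2 was lowest of its group for 7 of the 10 genes and control replicate 2 likewise for 7 of 10. The knockout count includes Tdrd1, whose E14.5 signals are too low to be ordered. At E16.5, knockout replicate 1 was lowest for 8 and control replicate 1 for 8, while knockout replicate 2 was highest for 7 and control replicate 3 for 8. The mean deviation over the 10 genes was 0.33 on the log2 scale in E16.5 knockout replicate 2 and 0.35 in control replicate 3, against -0.35 and -0.31 in the replicates numbered 1. Tdrd9 varied the most, with deviations of 0.88 in knockout replicate 2 and -1.19 in knockout replicate 4, and of 1.09 in control replicate 3 and -0.60 in control replicate 4. Tex101 was high in both replicates numbered 4, by 0.60 in knockouts and 0.68 in controls.

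Other lists moved in the same arrays, but not all in the same direction. The mean of the 6 oocyte transcription factors deviated by 0.63 in E16.5 knockout replicate 2 and by 0.76 in control replicate 3. In knockout replicate 4 it deviated by -0.69. The meiotic genes went the other way, by -0.15, -0.13 and 0.48 in the same order of arrays. The early germ cell and pluripotency genes deviated by 0.07, 0.48 and 0.56. The erythroid markers deviated the opposite way from the oocyte factors in those arrays, by -0.61 in knockout replicate 2 and -0.92 in control replicate 3. They deviated by 0.98 and 0.87 in the knockout and control replicates 4, where the mean of the 10 genes deviated by only -0.06 and -0.02. In the knockout and control replicates 1, where most of the 10 genes were lowest, the erythroid markers deviated by only 0.0037 and -0.063. E14.5 knockout replicate 2 was the lowest of its group for most genes of the set. There the surface epithelium markers deviated by 0.35 and the pre-granulosa, stromal and endothelial markers by 0.22 each. The mesonephric epithelium markers deviated by -0.16 and the erythroid markers by -0.07 in that array. In E14.5 control replicate 2, also lowest for most genes of the set, the surface epithelium markers deviated by -0.06, the pre-granulosa markers by 0.12 and the stromal markers by 0.09. The part of somatic or blood RNA in the deviations of the germ cell genes was not tested.

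**Figure D4:**
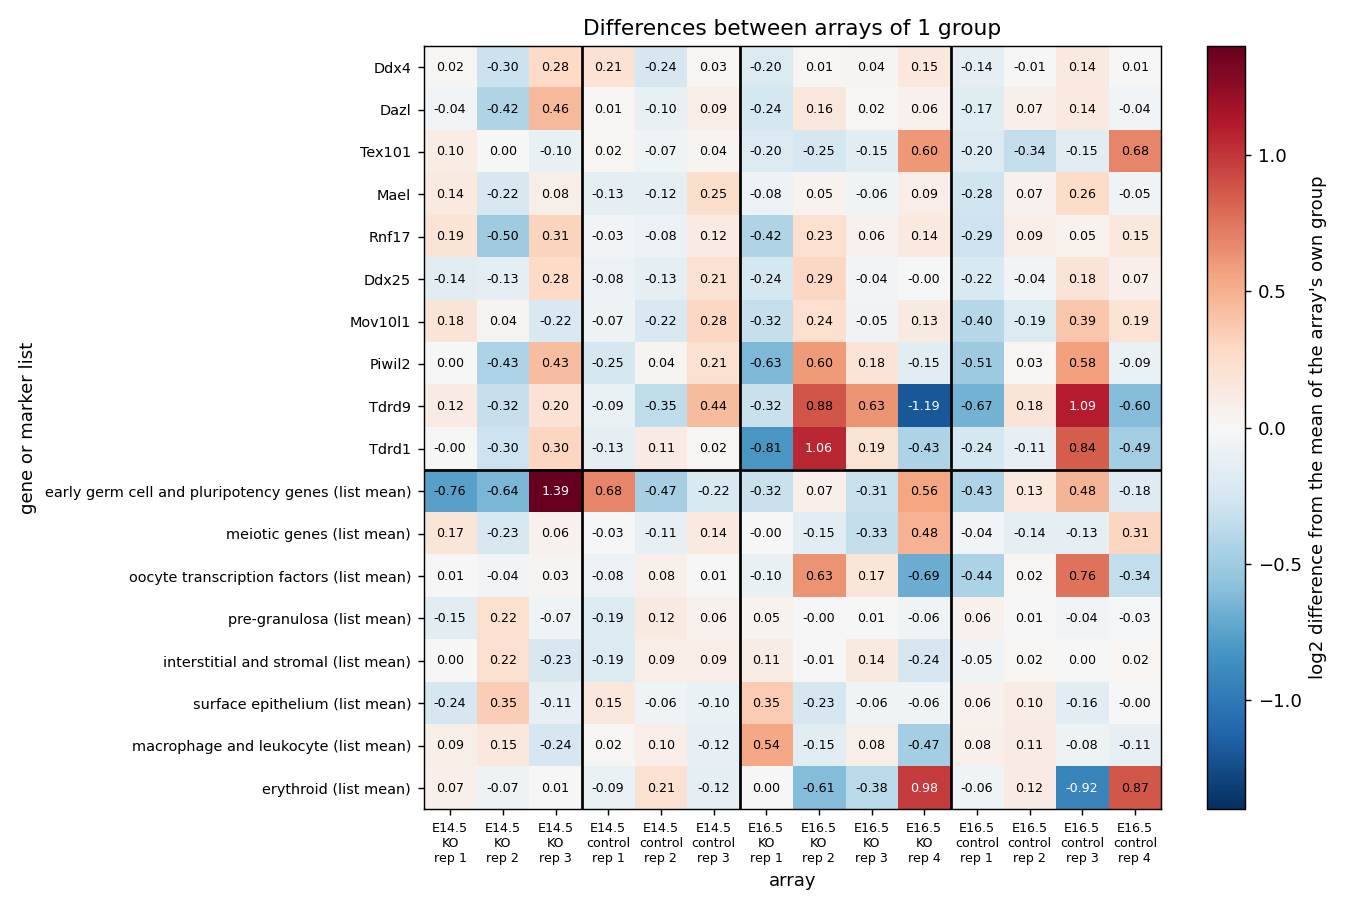
Log2 difference of each array from the mean of its own group, for the 10 genes (upper rows) and for the mean of 8 marker or gene lists (lower rows); columns are arrays, knockouts left of controls at each stage, and the printed numbers are the plotted values. Columns such as E16.5 knockout replicate 2 and E16.5 control replicate 3 are positive for most of the genes, while the Tex101 row follows a different course.

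The genes outside the set whose course was most like that of its mean were found by correlation. Over all 14 arrays these were Tdrd12 (r = 0.87), itself a piRNA pathway gene, Aftph (0.85), Slc27a2 (0.85), Sh3gl2 (0.84) and Grpel2 (0.83). After the group means were subtracted they were Alg13 (0.93), Pcgf5 (0.93), Epb41l4b (0.92), Slc27a2 (0.92) and Aftph (0.92). These are the extremes of 12406 genes over 14 arrays and are given as a description. The mean of the set joins members of opposite stage courses, such as Ddx4 and Tdrd1 (r = -0.95 over all arrays). It therefore need not be the course of any member, and it includes the E14.5 values of Tdrd1, which lie below the filter level.

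The other piRNA pathway genes were read from a fixed list of 23, of which 20 were on the array and 17 were tested. None passed between knockout and control at either stage. At E14.5 their median log2 change was -0.19, with 13 of 17 below 0 (44.7% of all genes). At E16.5 it was 0.15, with 14 of 17 above 0 (58.9% of all genes). The smallest p belonged to Pnldc1, a piRNA-trimming nuclease, at E14.5 (-0.47 ± 0.20; limma adjusted p = 0.532) and to Prmt5, the methyltransferase that marks PIWI proteins for Tudor binding, at E16.5 (0.36 ± 0.15; limma adjusted p = 0.214). Between stages, 1 gene was higher and 7 lower in knockouts (27.0% and 33.8% of all genes), and 0 were higher and 10 lower in controls (28.5% and 35.9% of all genes). Tex15 changed by -1.28 ± 0.15 in knockouts and -1.93 ± 0.15 in controls, Tdrd7 by -1.31 ± 0.18 and -1.78 ± 0.18, Wdr77 by -0.90 ± 0.15 and -1.17 ± 0.15, and Gpat2 by -1.32 ± 0.25 and -1.74 ± 0.25. The limma adjusted p was at most 0.000172 for each.

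Other germ cell RNA-binding and translation genes were followed with a list of 16, of which 14 were on the array and 11 were tested. None passed between knockout and control. Stk31, another Tudor-domain gene, averaged 6873 ± 1539 in E14.5 knockouts and 9343 ± 800 in E14.5 controls (SD, n = 3 each) with no overlap (log2 change -0.47 ± 0.17; limma adjusted p = 0.424). Dnd1, which protects germ cell mRNAs, averaged 130 ± 46.2 in E16.5 knockouts and 56.3 ± 31.9 in E16.5 controls (SD, n = 4 each), and did not pass (limma adjusted p = 0.0771); the control mean lies below the filter level of 62.0, so no size is given for this difference. Between stages 1 was higher and 7 lower in knockouts (27.0% and 33.8% of all genes). In controls 1 was higher and 8 lower (28.5% and 35.9% of all genes). Stk31 changed by -2.27 ± 0.16 in knockouts and -2.73 ± 0.16 in controls, and Boll, a relative of Dazl, by -2.22 ± 0.23 and -2.92 ± 0.23. Meioc changed by -0.98 ± 0.16 and -1.28 ± 0.16, and Ybx2, an mRNA-storing protein of oocytes, was higher (1.96 ± 0.22 and 1.50 ± 0.22).

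Close relatives of the set that somatic cells also transcribe were followed with a list of 10. Of these, 9 were on the array and tested, and none passed between knockout and control. Their median log2 change was 0.0097 at E14.5 and 0.10 at E16.5. Between stages 3 were higher and 3 lower in knockouts, and 3 higher and 4 lower in controls (2 and 3 without E14.5 control replicate 1), against 27.0% and 33.8% of all genes in knockouts and 28.5% and 35.9% in controls. Mov10, the relative of Mov10l1, was higher (0.61 ± 0.15 in knockouts and 0.87 ± 0.15 in controls), as was Ago1 (1.25 ± 0.13 and 1.65 ± 0.13). Ddx3x, a relative of Ddx4, was lower (-1.14 ± 0.08 and -0.99 ± 0.08), and Tdrd3 was lower too (-0.58 ± 0.12 and -0.43 ± 0.12).

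Germ cell genes of other programmes were read from 3 lists. All 9 tested genes of the early germ cell and pluripotency list lay below 0 at E14.5, against 44.7% of all genes. Their median was -1.23, and none passed. Without E14.5 control replicate 1 the median was -0.89. Pou5f1, the pluripotency factor of early germ cells, had a log2 change of -1.55 ± 0.54 and Sall4 of -2.03 ± 0.70 (limma adjusted p = 0.414 for both). Within the E14.5 knockouts, replicate 3 deviated by 1.39 for the mean of this list, and within the E14.5 controls replicate 1 deviated by 0.68. The 11 genes on the array summed to 1920, 2016 and 9278 in E14.5 knockouts and to 5241, 6046 and 12681 in E14.5 controls, the highest being knockout replicate 3 and control replicate 1. At E16.5 the same 9 genes all lay above 0, against 58.9% of all genes, with a median of 0.42, and none passed. Between stages 1 was higher and 2 lower in knockouts (27.0% and 33.8% of all genes), with a median of -0.31. In controls 0 were higher and 8 lower (28.5% and 35.9% of all genes), with a median of -1.94. Without E14.5 control replicate 1, 7 were lower in controls. For the difference of the knockout effect all 9 lay above 0, against 52.5% of all genes, with a median of 1.63, and none passed. Of the 11 meiotic genes none passed between knockout and control at either stage (median of -0.05 at E14.5, and of 0.09 at E16.5). Hormad1, a protein of the meiotic chromosome axis, had a log2 change of -0.53 ± 0.17 at E14.5 (limma adjusted p = 0.404). Stra8, which licenses entry into meiosis, averaged 2472 ± 2794 in E14.5 knockouts and 6320 ± 1599 in E14.5 controls (SD, n = 3 each; limma adjusted p = 0.432). Between stages, 10 of the 11 meiotic genes were lower at E16.5 in each genotype (8 in controls without E14.5 control replicate 1). Of all genes, 33.8% were lower in knockouts and 35.9% in controls. None of the 6 oocyte transcription factors passed between knockout and control, with a median of -0.19 at E14.5. Between stages 3 of the 6 were higher and 2 lower in knockouts (27.0% and 33.8% of all genes). In controls 3 were higher and 3 lower (28.5% and 35.9% of all genes). Taf4b changed by -1.71 ± 0.16 in knockouts and -1.75 ± 0.16 in controls, and Sohlh2 by -0.80 ± 0.23 and -1.32 ± 0.23. Nobox was higher, by 2.36 ± 0.55 in knockouts and 2.10 ± 0.55 in controls. Sohlh1 (1.20 ± 0.36 and 1.04 ± 0.36) and Lhx8 (1.48 ± 0.45 and 1.64 ± 0.45) were higher too.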

How the data were processed

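The authors deposited 1 intensity value per probe set, on a linear scale, for each of 14 Affymetrix arrays of whole mouse ovaries (E14.5: 3 knockout and 3 control; E16.5: 4 knockout and 4 control). The submitters' processing notes name MAS5 and Affymetrix Expression Console, without versions. Per the labels' protocols, 100 ng of total RNA, isolated with a PicoPure kit, was amplified with the Affymetrix 3' IVT Express kit. On every array the mean signal, trimmed by 2% at each end, was 500, so a difference in total RNA between arrays is removed. The number of arrays limits the precision.

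Signals were taken as log2(signal + 16) without further normalization. Of 45037 probe sets other than controls, 34945 had 1 gene symbol in the platform annotation, 932 several and 9160 none listed. The probe set of highest mean stood for each of 18193 genes, and the 12406 above the 40th percentile (signal of 62.0) were tested. Differences came from a linear model of the 4 groups over the 14 arrays (limma 3.58.1, functions lmFit and eBayes, with the trend option of eBayes; R 4.3.3). Tests were two-sided, with adjustment over all genes tested (Benjamini-Hochberg, threshold 0.05). The same model over all probe sets gave the values of single probe sets. The code was tested on simulated data. Figures were drawn with matplotlib 3.10.9.

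The members and gene lists were chosen with earlier results of these data known. Every member is named; of each gene list the text names up to 4 genes of smallest p past the threshold, or up to 2 given as values where none passed, and of the most similar genes 5 by each measure. Alternatives changed the pseudocount, scaling, filter, choice of probe set, spread model and samples fitted, added a replicate block or the Gapdh 3' minus 5' difference, and left out arrays.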

Additional observations from a re-analysis of the deposited data

Results flagged for a closer look

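One value of the set stood far from the others of its group. In E16.5 knockout replicate 4, Tex101 read 2205, against 1211 to 1300 in the other 3 E16.5 knockouts, a gap to the nearest array larger than Dixon's limit allows on the log2 scale. The E16.5 control replicate 4 was also the highest of its group, at 1539 against 749 to 856. Of the 28 groups of 4 arrays examined, 1 was singled out this way, and chance singles out about 1 group in 20. In knockout replicate 4 the bioB hybridization control was 17637, the highest of all arrays, and the erythroid markers deviated by 0.98 on the log2 scale from their group mean; their part in the Tex101 value was not tested.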

How the results depend on the processing

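Of 985 values recomputed for single genes of the set, 917 kept their direction and their side of the threshold. No gene of the set passed between knockout and control at E14.5 in any alternative other than the one without E14.5 knockout replicate 3 (range of the count 0 to 1 when arrays were left out). At E16.5, Tex101 passed with the replicate block (count of 1; 0.59, limma adjusted p = 0.00525) and without E16.5 control replicate 4 (range of the count 0 to 1). Whether the replicate numbers pair the samples cannot be told from these values. In deviations from their group means, same-numbered arrays correlated at -0.0025, 0.16 and -0.048 at E14.5. At E16.5 they correlated at 0.19, -0.0022, 0.058 and 0.43. Arrays of different numbers correlated at -0.16 to 0.14 at E14.5 and at -0.30 to 0.25 at E16.5. Over all genes, 5 passed at E14.5, 9 with no filter, 8 with the replicate block, and 0 with a pseudocount of 64, quantile normalization, median centring, the 60th percentile filter, no trend, the arrays of the groups compared only or the Gapdh covariate; leaving out an array gave 0 to 179, the highest without E14.5 knockout replicate 3 and 23 without E14.5 control replicate 1. At E16.5, 176 passed, 276 with quantile normalization, 256 with the block, 18 with the Gapdh covariate, 16 without E16.5 knockout replicates 1 and 4 together, and 43 to 494 without 1 array (43 without knockout replicate 1, 494 without knockout replicate 2). For the difference of the knockout effect 0 passed, 1 with no filter, and 0 to 30 without 1 array (30 without E14.5 knockout replicate 3).

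Between stages, with the Gapdh covariate 1197 genes passed in knockouts and 701 in controls, and 2 genes of the set in each, Ddx4 (-2.90 and -3.47) and Dazl (-2.53 and -3.13); the covariate itself separates the stages without overlap. Of 7547 genes called in knockouts, 3351 were higher, against 2893 of 7742 with quantile normalization, 2082 of 8147 with median centring and 4226 of 7420 with the mean of probe sets. Of 7993 called in controls, 3541 were higher, against 3050 of 8150, 2257 of 8508 and 4395 of 7870. The median of all genes was -0.08 in knockouts and -0.09 in controls, -0.20 and -0.21 with quantile normalization, and -0.41 and -0.43 with median centring. The median of the set in knockouts was -0.69 with median centring, -0.61 with the 60th percentile filter (which leaves out Tdrd1), -0.065 with the mean of probe sets and -0.63 with the Gapdh covariate; in controls it was -0.93, -0.97, -0.19 and -0.88. Without Tdrd1, an alternative chosen after seeing the data, it was -0.61 in knockouts and -0.97 in controls. Leaving out 1 array gave -0.45 to -0.29 in knockouts and -0.67 to -0.48 in controls. Without E16.5 knockout replicates 1 and 4 the median was 0.30 for knockout against control at E16.5 and 0.52 for the difference of the knockout effect, which was 0.51 with the Gapdh covariate. The cause was not tested. Values that changed sign were all of genes that did not pass, other than Piwil2 in controls between stages (-0.37 with the Gapdh covariate). For knockout against control at E16.5 these were Dazl (-0.073 with the mean of probe sets), Tdrd1 (0.56) and Tdrd9 (0.22) with the Gapdh covariate, and 0.55 and 0.49 without knockout replicates 1 and 4. Mov10l1 between stages in knockouts was -0.24 with median centring and -0.53 with the Gapdh covariate. The difference of the knockout effect for Tdrd1 was 0.24 with a pseudocount of 1, 0.0097 with median centring, 0.56 with the Gapdh covariate and 0.62 without knockout replicates 1 and 4, and that for Tdrd9 was -0.030 with a pseudocount of 64. Of all recomputed values, 50 changed sign, of which the 13 above came from alternatives other than leaving out 1 array. Leaving out 1 array changed the sign of 16 results, each a gene in 1 comparison, in at least 1 run. At E14.5, knockout against control ranged from -0.17 to 0.022 for Mael, -0.21 to 0.082 for Tdrd1, -0.40 to 0.035 for Piwil2, -0.023 to 0.23 for Mov10l1 and -0.17 to 0.070 for Ddx25. At E16.5 it ranged from -0.0088 to 0.13 for Dazl, -0.42 to 0.21 for Tdrd1, -0.55 to 0.14 for Tdrd9, -0.12 to 0.29 for Piwil2 and -0.048 to 0.13 for Ddx25. Between stages, Mov10l1 ranged from -0.023 to 0.19 in knockouts and -0.21 to 0.058 in controls, and Ddx25 from -0.22 to 0.013 in knockouts. The difference of the knockout effect ranged from -0.36 to 0.28 for Tdrd1, -0.27 to 0.42 for Tdrd9 and -0.022 to 0.22 for Ddx25.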
